A study of Arabidopsis thaliana with 12 samples.

Results

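Plastid thioredoxin reductases pass reducing power to thioredoxins, small proteins that switch enzymes on and off through pairs of cysteines. Plastids have 2 such routes. FTRB (AT2G04700) is the catalytic subunit of ferredoxin-thioredoxin reductase, which takes electrons from ferredoxin, the carrier that photosystem I reduces in the light. NTRC (AT2G41680) is an NADPH-dependent thioredoxin reductase joined to a thioredoxin domain in 1 protein, so it can also work in the dark, and it reduces the 2-Cys peroxiredoxins that remove peroxide. Paraquat, a bipyridinium herbicide, diverts photosystem I's electrons to oxygen when plants are lit.

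The 2 genes were taken by their gene symbol from probes that list 1 gene. Each had 1 such probe, of 692 single-gene probes, which cover 691 genes, and 3439 probes in all, and no probe with several genes listed either of them. RefSeq gives 3 transcripts for FTRB and 1 for NTRC, and the sources used here do not say which of them the FTRB probe reads. The array table holds 12 samples of total RNA from wild-type Arabidopsis thaliana of the Landsberg ecotype, 6 from plants given 50 µM paraquat and 6 from plants given water. All plants had spent 12 h in darkness and were sampled 30 min after the light came back. The labels name neither organ, age nor number of plants, and do not say whether the numbers 1 to 6 stand for separate cultures or for repeated measurements, so p-values here cover no more than the spread among the 12 samples, and that spread may be technical only.

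Intensities were deposited on a linear scale set by the authors. Column medians lay between 0.563 and 0.635 under paraquat and between 0.443 and 0.491 under water, so columns were quantile normalized before any fold change. Samples 1 and 2 stood apart in both groups. Their correlations of log2 values with samples 3 to 6, over 3186 probes without zeros, were 0.876 to 0.892 under paraquat and 0.756 to 0.797 under water. Samples 3 to 6 correlated with each other at 0.912 to 0.949 under paraquat and 0.841 to 0.937 under water. Neighbouring numbers (1 and 2, 3 and 4, 5 and 6) correlated at 0.920 to 0.949 under paraquat and 0.859 to 0.937 under water, and may be repeats of 1 sample. Results for FTRB, NTRC and the difference between them are therefore also given without samples 1 and 2 and with neighbours averaged. Intensities cannot tell fewer cells of a type from less RNA per cell.

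FTRB fell under paraquat to 0.385 times its level under water (0.450 times without samples 1 and 2), and its samples did not overlap between the groups. Such separation was common, since after normalization 34.6% of all probes had no overlap between the groups, in either direction. NTRC was at 0.721 times its level under water, a smaller difference that depended on the samples and the processing. Of the listed plastid enzymes that thioredoxins regulate, 4 had a probe of their own. The probe of phosphoribulokinase fell, that of the NADP-dependent malate dehydrogenase rose, and 2 did not pass an adjusted p of 0.05 in limma. Of all 3439 probes, 826 passed as higher under paraquat and 979 as lower, so this split singles out no direction.

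The deposited intensity of FTRB was 0.315, 0.274, 0.275, 0.316, 0.284 and 0.216 in paraquat samples 1 to 6. It was 0.851, 0.764, 0.467, 0.482, 0.529 and 0.657 in water samples 1 to 6. Every paraquat sample lay below every water sample, and the paraquat samples lay close together while water samples 1 and 2 were the highest. The mean was 0.280 ± 0.037 under paraquat and 0.625 ± 0.159 under water (SD, n = 6 each). All these values were above the 5th percentile of values above 0 in the table, 0.118. Within its sample, FTRB ranked between the 15.8th and 26.1st percentile of probes under paraquat and between the 47.1st and 78.7th under water.

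**Figure D1:**
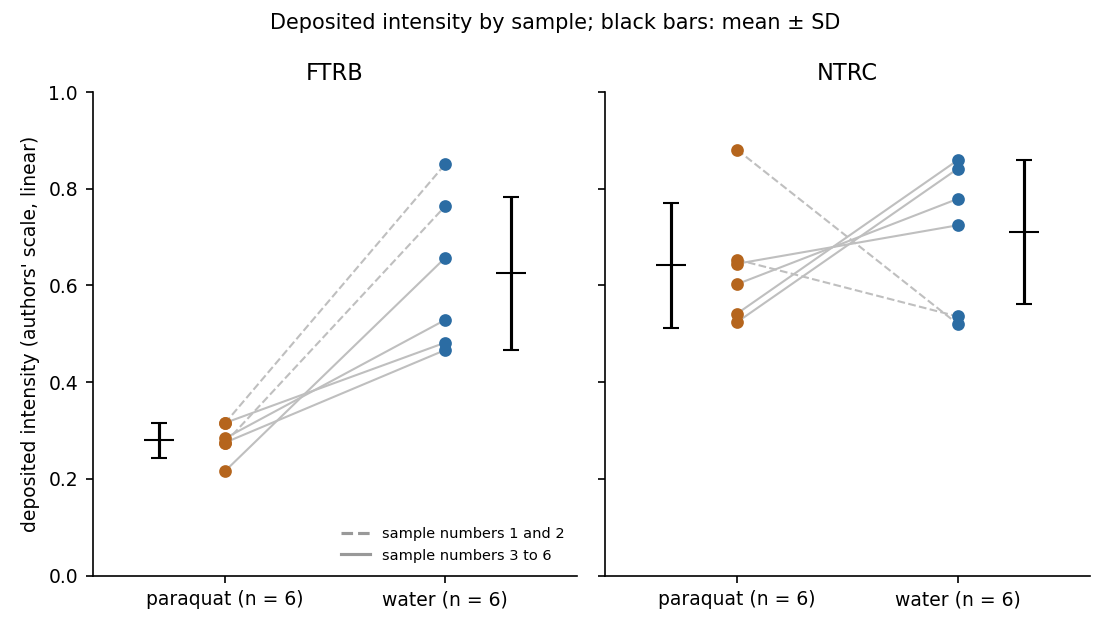
Deposited intensity of FTRB (left) and NTRC (right) in each paraquat and water sample; lines join samples of equal number, dashed for numbers 1 and 2, and black bars are the mean ± SD (n = 6). All FTRB points under paraquat lie at or below 0.316 and all under water at or above 0.467, while the NTRC points of the 2 groups overlap and the dashed lines slope the other way from the rest.

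After quantile normalization the log2 fold change of FTRB, paraquat minus water, was -1.38 ± 0.18 (SE, n = 6 per group). Its 95% interval ran from -1.76 to -0.99, with an adjusted p of 5.11e-05 in limma over all 3439 probes. The difference was seen in 6 of 6 numbered pairs, between -0.76 in pair 4 and -1.85 in pair 2. Pairs 1, 2 and 6 differed most, at -1.79, -1.85 and -1.83, and pairs 3, 4 and 5 at -0.89, -0.76 and -1.14. Of all probes, 52.5% passed the same threshold of 0.05, and 28.5% passed it as lower under paraquat. For 14.6% of probes every deposited paraquat value lay below every water value, and 29.0% of probes were lower in all 6 numbered pairs after normalization, so such calls were common on this array. In size FTRB ranked 219th from the lowest fold change of 3439 probes, and 37th of the 692 probes with 1 gene. With the sample number as a block its adjusted p was 0.00112 in limma. With neighbouring numbers averaged (3 per group) it was 0.0113 in limma, and 0.0270 with their pair also kept as a block. Without samples 1 and 2 the log2 fold change of FTRB was smaller, at -1.15 ± 0.17 (SE, n = 4 per group, adjusted p = 0.00112 in limma).

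The deposited intensity of NTRC was 0.653, 0.880, 0.603, 0.542, 0.645 and 0.524 in paraquat samples 1 to 6. It was 0.536, 0.521, 0.779, 0.859, 0.724 and 0.841 in water samples 1 to 6. The groups overlapped over most of their range: water samples 1 and 2 were the lowest of their group, and paraquat samples 2 and 1 the highest of theirs. The mean was 0.641 ± 0.128 under paraquat and 0.710 ± 0.149 under water (SD, n = 6 each). In samples 1 and 2 the order of the groups was therefore turned from that in samples 3 to 6. Deposited values were lower under paraquat in 4 of 6 numbered pairs, and normalized values in 5 of 6.

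After quantile normalization the log2 fold change of NTRC was -0.47 ± 0.15 (SE, n = 6 per group), with a 95% interval of -0.79 to -0.15 and an adjusted p of 0.0181 in limma. With the sample number as a block, in case equal numbers pair the samples, the adjusted p was 0.0645 in limma. With neighbouring numbers averaged it was 0.123. Pair differences were -0.21 in pair 1 and 0.31 in pair 2, against -0.63, -0.92, -0.43 and -0.96 in pairs 3 to 6. Without samples 1 and 2 the log2 fold change was -0.73 ± 0.10 (SE, n = 4 per group, adjusted p = 0.000761 in limma). With the values as deposited it was -0.14 (adjusted p = 0.522); over all probes the median was 0.19 in that form and -0.04 after quantile normalization. In size NTRC ranked 1079th from the lowest of 3439 probes, so 31.4% of all probes were at its fold change or below.

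Within a group, the SD of log2 values of FTRB was 0.193 under paraquat and 0.397 under water, where the median over all probes was 0.250 and 0.354. That of NTRC was 0.232 under paraquat and 0.276 under water. In water samples the genes ran in opposite order at number 1 and 2, where FTRB was highest and NTRC lowest. Averaged over neighbouring numbers, deposited FTRB under water was 0.807 for samples 1 and 2, 0.474 for 3 and 4 and 0.593 for 5 and 6, against 0.528, 0.819 and 0.783 for NTRC. Under paraquat the same averages of FTRB stayed between 0.250 and 0.295, and those of NTRC were 0.767, 0.572 and 0.585. If neighbouring numbers are repeats, each group holds 3 samples and the pair of 1 and 2 is 1 of them.

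To compare the routes, the log2 value of NTRC was subtracted from that of FTRB within each sample, which removes any factor that scales a whole column. The levels of different probes cannot be compared, but the change of this difference between the groups can. The difference was -0.98, -1.65, -1.03, -0.71, -1.14 and -1.22 in paraquat samples 1 to 6. It was 0.60, 0.52, -0.77, -0.87, -0.43 and -0.35 in water samples 1 to 6. Paraquat sample 4 lay above water samples 3 and 4, and otherwise every paraquat sample was below every water sample. The mean was -1.12 ± 0.31 under paraquat and -0.21 ± 0.63 under water (SD, n = 6 each).

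The log2 fold change of FTRB was thus lower than that of NTRC, by -0.91 ± 0.29 (SE, 6 samples per group), with p = 0.00649 in a two-sided exact permutation test that takes the 12 samples as independent. Much of this came from samples 1 and 2. The numbered pairs gave -1.58, -2.17, -0.26, 0.16, -0.71 and -0.87 for pairs 1 to 6, 5 of 6 below 0, and sign flips over the pairs gave an exact p of 0.0625, where 0.0312 is the smallest possible. Without samples 1 and 2 the difference was -0.42 ± 0.17 (SE, n = 4 per group, exact permutation p = 0.0857). With neighbouring numbers averaged the exact permutation p was 0.1, the smallest that 3 against 3 allows, so that form cannot pass 0.05.

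**Figure D2:**
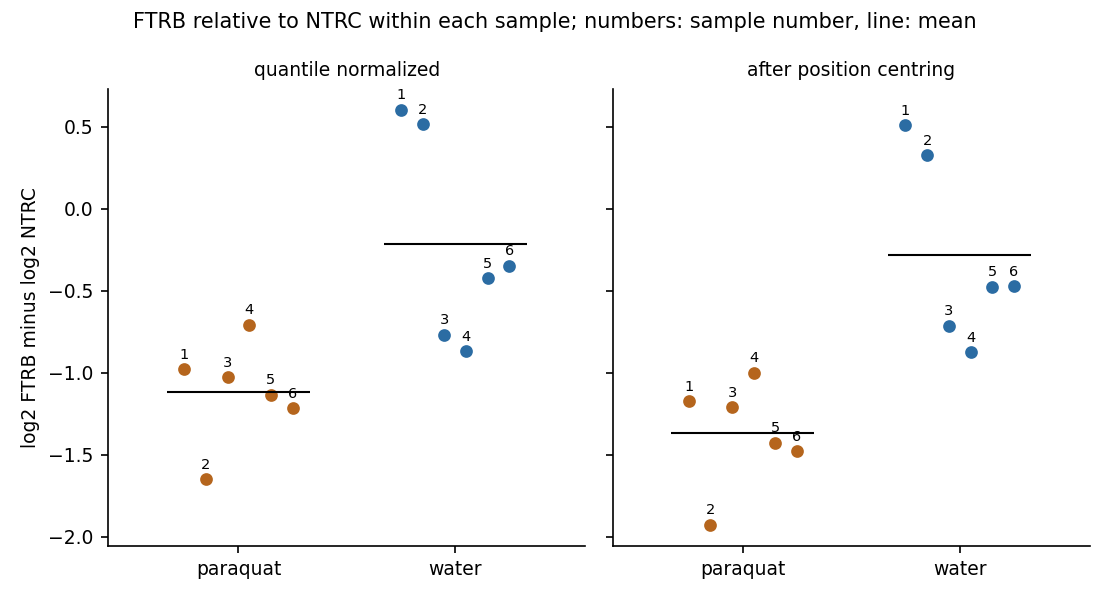
Log2 FTRB minus log2 NTRC within each sample (vertical axis), paraquat left and water right, after quantile normalization (left panel) and after position centring (right panel); labels are sample numbers and lines are means. Water samples 1 and 2 lie highest in both panels, and the groups overlap in the left panel and not in the right.

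Fold changes on this array followed the probe number in a repeating profile. In 24 steps of 12 numbers, step medians of the log2 fold change ran from -0.77 to 0.61. FTRB lay in step 23, whose 145 probes had a median of -0.36, and was 7th from the lowest among them. NTRC lay in step 3, whose 135 probes had a median of -0.68, and was 84th from the lowest, so most probes of its step were lower. Relative to the sample's median, the median of step 3 averaged -0.10 ± 0.07 under paraquat and 0.35 ± 0.08 under water (SD, n = 6 each). That of step 23 averaged 0.15 ± 0.08 under paraquat and 0.42 ± 0.14 under water. The median of each gene's step thus moved in the same direction as the gene. Not all probes of a step did: 60.7% of those in step 3 and 45.5% of those in step 23 passed as lower in limma.

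**Figure D3:**
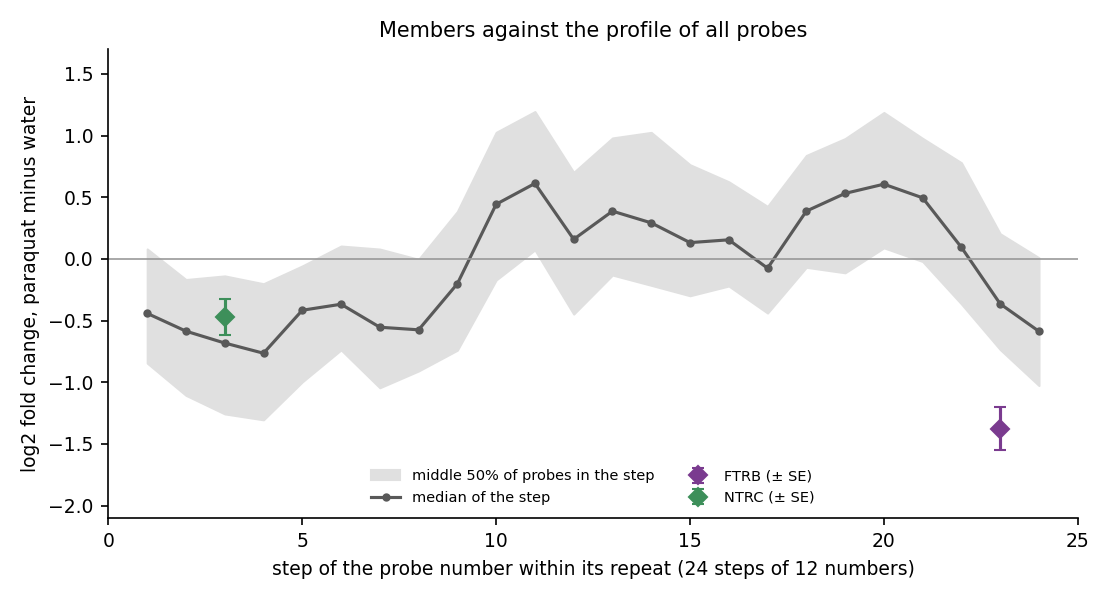
Log2 fold change, paraquat minus water, by step of the probe number (1 to 24): the line is the median and the band the middle 50% of the probes in a step, and diamonds are FTRB and NTRC ± SE. NTRC lies inside the band at step 3 and FTRB lies well below the band at step 23.

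Each sample was then centred on the median of the probes in the same step. FTRB kept its call, with a log2 fold change of -1.11 ± 0.15 (SE, n = 6 per group, adjusted p = 9.57e-05 in limma), where 26.2% of all probes passed as lower. Its centred values ran from -1.50 to -0.92 under paraquat and from -0.35 to 0.35 under water. Before centring, 34.6% of all probes had no overlap between the groups, in either direction, and the share after centring was not counted. NTRC was at -0.025 ± 0.159 (SE, adjusted p = 0.916 in limma), with a 95% interval of -0.37 to 0.32. Its centred values ran from -0.024 to 0.58 under paraquat and from -0.16 to 0.60 under water. The difference between the genes was -1.09 ± 0.27 (SE, n = 6 per group, exact permutation p = 0.00216, the smallest possible), negative in 6 of 6 numbered pairs. That p takes the 12 samples as independent. Sign flips over the 6 pairs, which cannot go below 0.0312, were not run in this form. Here the groups did not overlap: every difference under paraquat was below the lowest one under water, -0.87. How often differences between other probes separate the groups was not counted, so this separation cannot be weighed. With centring and without samples 1 and 2, a combination chosen after seeing the data, it was -0.64 ± 0.15 (SE, n = 4 per group, exact permutation p = 0.0286, the smallest possible). In that form NTRC was at -0.27 (adjusted p = 0.115 in limma) and FTRB at -0.91 (adjusted p = 0.00209).

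**Figure D4:**
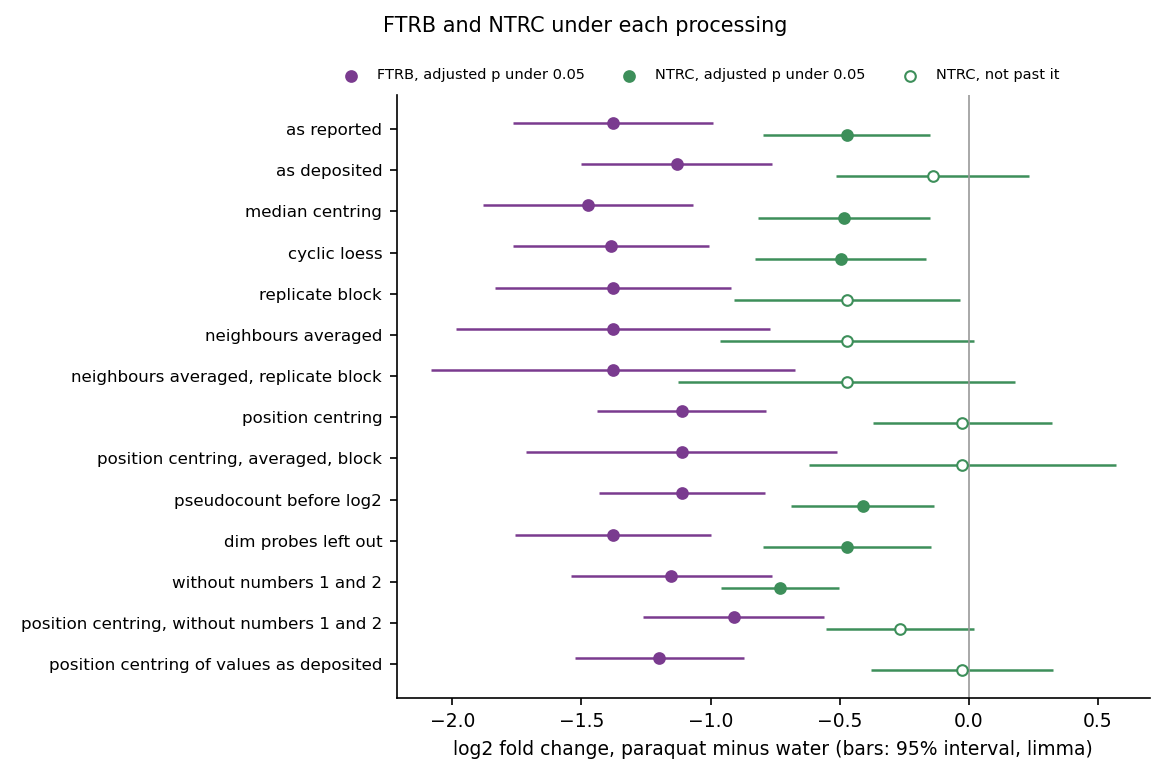
Log2 fold change, paraquat minus water, of FTRB and NTRC (horizontal axis) under each processing (rows), with 95% intervals from limma; filled points passed an adjusted p of 0.05 and open points did not. FTRB is filled in every row shown, between -1.48 and -0.91, and NTRC spans -0.73 to -0.025 with both kinds of point.

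The rest of the thioredoxin system was sparsely covered. Of 72 genes on 6 lists of the system, 8 had a probe of their own, among them FTRB and NTRC. The lists of 9 ferredoxins and their NADP reductases, of 6 genes of plastid NADPH supply and of 20 plastid thioredoxins had none, and of the 6 thioredoxin reductases the members were the measured ones. Of the other 6 genes measured, 2 rose, 2 fell and 2 did not pass in limma, with a median log2 fold change of 0.04 against -0.04 over all probes. Of all 3439 probes, 826 passed as higher and 979 as lower, so these shares single out no direction. After position centring 3 were higher, 1 was lower and 2 did not pass, where 729 of all probes passed as higher and 902 as lower.

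Among plastid enzymes that thioredoxins regulate, 4 of 22 had a probe of their own, of which 1 rose, 1 fell and 2 did not pass, shares close to those of all probes. The malate dehydrogenase NADP-MDH (AT5G58330), which carries excess reducing power out of the chloroplast as malate, had a deposited mean of 2.66 ± 0.19 under paraquat and 0.884 ± 0.394 under water (SD, n = 6 each). Its paraquat samples, 2.42 to 2.88, all lay above its water samples, 0.368 to 1.26. For 34.6% of all probes the normalized values of the groups did not overlap, in either direction. It rose by 1.60 ± 0.29 on the log2 scale (SE, adjusted p = 0.000606 in limma), and was at 1.72 after position centring. The Calvin cycle enzyme PRK (AT1G32060), which makes the acceptor of carbon dioxide, had a deposited mean of 0.452 ± 0.114 under paraquat and 0.916 ± 0.337 under water. Its log2 fold change was -1.24 ± 0.23 (SE, adjusted p = 0.000675 in limma), close in size to that of FTRB and in the same step of the probe number, and -0.97 after position centring. SBPASE (AT3G55800), the sedoheptulose bisphosphatase of the same cycle, was at 0.29 (adjusted p = 0.195 in limma). It passed as higher with the values as deposited (0.61, adjusted p = 0.0120) and after position centring (0.74, adjusted p = 0.00215). CHLM (AT4G25080), the methyltransferase of magnesium protoporphyrin in chlorophyll synthesis, was at -0.20 (adjusted p = 0.217 in limma) and at 0.26 after position centring (adjusted p = 0.0878). A probe that lists 2 genes of this list and no others was lower under paraquat, at -1.14 ± 0.18 (SE, adjusted p = 0.000280 in limma; -0.61 after position centring).

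On the list drawn up for peroxide and sulfoxide reduction with thioredoxin, 2 of 9 enzymes had a probe. Whether thioredoxin reduces each listed enzyme was not tested. PRXIIE (AT3G52960), a plastid type II peroxiredoxin, rose by 2.43 ± 0.21 on the log2 scale (SE, adjusted p = 2.56e-06 in limma), with deposited means of 1.73 ± 0.15 under paraquat and 0.299 ± 0.087 under water (SD, n = 6 each). Its probe lay in step 20, whose median log2 fold change was 0.61, and it was at 1.72 after position centring (adjusted p = 1.71e-05). SRX (AT1G31170), the sulfiredoxin that restores overoxidised 2-Cys peroxiredoxins, fell by 0.44 ± 0.13 (SE, adjusted p = 0.0124 in limma), with deposited means of 0.629 ± 0.069 under paraquat and 0.685 ± 0.134 under water. Like NTRC it did not pass when the values were used as deposited, at -0.11 (adjusted p = 0.549), nor once they were centred by position, at -0.14 (adjusted p = 0.555). With neighbouring numbers averaged its adjusted p was 0.0955, and 0.0698 with their pair also kept as a block. A probe that lists only 3 plastid thioredoxins was at -0.35 (adjusted p = 0.317 in limma).

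**Figure D5:**
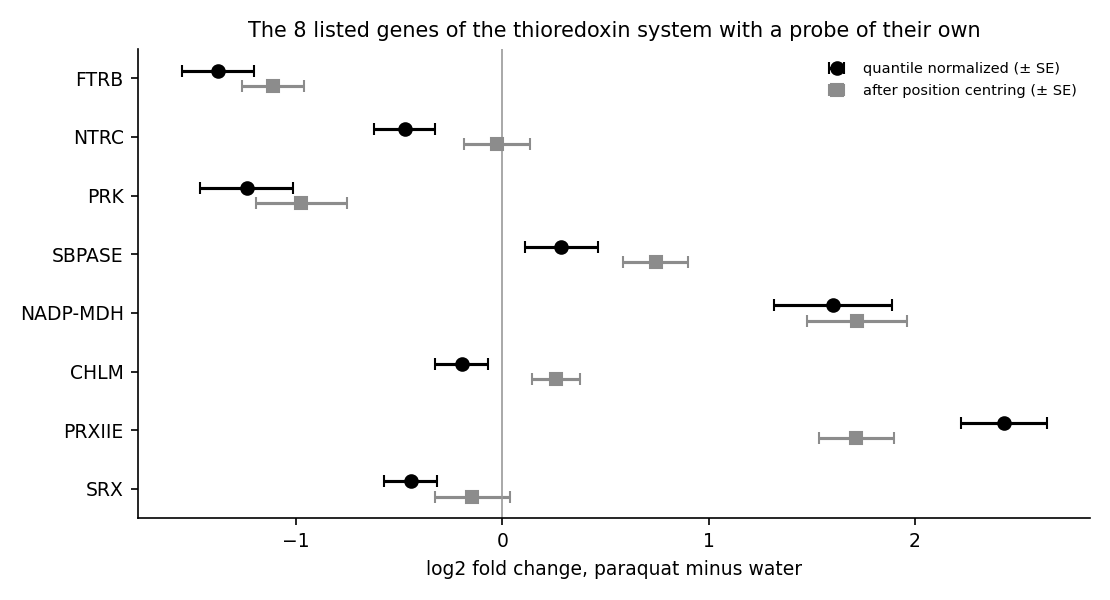
Log2 fold change, paraquat minus water, of the 8 listed genes with a probe of their own, after quantile normalization (circles) and after position centring (squares), each ± SE. PRXIIE and NADP-MDH lie above 1 and FTRB and PRK near or below -1 in both forms, and NTRC is near 0 in the centred form.

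The genes most like each member over the 12 samples were sought among 635 other single-gene probes without zeros, by Pearson's r of log2 values. For FTRB these were AT2G37510 (r = 0.982), AT4G17260 (r = 0.975) and AT2G48090 (r = 0.964), and r of their deviations from the group means was 0.871, 0.862 and 0.730. Their log2 fold changes were -1.10, -0.85 and -1.11, and none lay in the step of FTRB. For NTRC they were AT4G27390 (r = 0.808), AT1G11730 (r = 0.803) and AT5G10910 (r = 0.787), with r of the deviations of 0.653, 0.529 and 0.479. Their log2 fold changes were -1.35, -1.39 and -0.55, and AT4G27390 shared step 3 with NTRC. NTRC ranked 209th in likeness to FTRB and FTRB 146th in likeness to NTRC. These are descriptions over samples that share treatment and columns.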

How the data were processed

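The deposited table holds 1 intensity per probe and sample, on a linear scale. The authors' scanner, background correction and scaling are not given in the sources used here, and column means between 0.944 and 1.07 show that the values were scaled before they were deposited. Each column had 108 to 148 zeros, which were set to the lowest value above 0 of the column. FTRB and NTRC had none. After quantile normalization between columns, log2 values were compared in R 4.3.3 with limma 3.58.1 (lmFit, eBayes; two-sided, no block). P-values were adjusted by Benjamini and Hochberg's method over all 3439 probes, and 0.05 was the threshold. The difference between the genes was tested with exact permutations over samples. Precision is limited by the number of arrays.

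Samples of equal number deviated together from their group means (correlations 0.337 to 0.505 for the 6 numbers, over 3186 probes). Samples 1 and 2 stood apart in both groups, and no correlations between unequal numbers across the groups were set beside these. Whether the numbers pair the samples was therefore not settled here, and the labels do not say. With the sample number as a block, the adjusted p in limma was 8.92e-05 for PRK and 0.00193 for NADP-MDH. It was 9.50e-05 for PRXIIE and 0.0113 for SRX. With neighbouring numbers averaged, the adjusted p in limma was 0.0343 for PRK, 0.0332 for NADP-MDH and 0.00455 for PRXIIE. Without samples 1 and 2 the log2 fold change was -1.26 for PRK, 1.16 for NADP-MDH, 2.60 for PRXIIE and -0.51 for SRX. For SBPASE and CHLM it was 0.30 and -0.23 in that form.

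Probes were named from the platform annotation, with symbols from RefSeq for TAIR10.1 where it gives them (FTRB and PRXIIE are common names for AT2G04700 and AT3G52960, listed there by locus only, and NADP-MDH is a RefSeq synonym): 692 had 1 gene, 870 several, and 1877 were not listed. No array build is named, so no coordinates are given. The text names FTRB, NTRC, all listed genes with a probe of their own and the 3 probes most like each member. The members, lists and alternatives, position centring among them, were chosen with earlier results of these data known. Those named as chosen after seeing the data were added later. Alternatives were other scalings, a pseudocount of 0.1, a filter on the dimmest 20% of probes, the block, averaging of neighbours, position centring and leaving out samples. Figures were drawn with matplotlib 3.10.9.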

Additional observations from a re-analysis of the deposited data

Results flagged for a closer look

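Paraquat sample 2 stood apart in the deposited intensity of NTRC, at 0.880 against 0.524 to 0.653 in the other paraquat samples. The ratio of its gap to the range of the group was 0.638, above Dixon's 95% critical value of 0.625 for 6 samples. After normalization the ratio was 0.504. Of 10 groups of values checked this was the 1 above the limit, and chance gives about 1 in 20. Without that sample the log2 fold change of NTRC was -0.56 (adjusted p = 0.00641 in limma).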

How the results depend on the processing

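FTRB stayed lower and past the threshold under 23 alternatives, with log2 fold changes of -1.48 to -1.11 and adjusted p up to 0.0348 in limma, and under 2 more chosen after seeing the data (-1.20 with centring of the deposited values, -0.91 with centring and without samples 1 and 2); leaving out single samples gave -1.48 to -1.28. NTRC stayed negative under the same 23 and lost the call under 6: as deposited (-0.14), with the replicate block (-0.47, adjusted p = 0.0645), with neighbours averaged (-0.47, adjusted p = 0.123; 0.181 with the pair as a block) and after position centring (-0.025, also with averaging and the block). Under the 2 later ones it did not pass with centring and without samples 1 and 2 (-0.27) or with centring of the deposited values (-0.025). Leaving out single samples gave NTRC -0.56 to -0.42 (highest adjusted p 0.0410). The difference between the genes lost its call under 5 alternatives: with the replicate block (-0.91, exact p = 0.0625), neighbours averaged (-0.91, exact p = 0.1), averaged with the block (-0.91, exact p = 0.25), centring, averaging and block together (-1.09, exact p = 0.25), and without samples 1 and 2 (-0.42, exact p = 0.0857); in the 3 averaged forms the design cannot reach 0.05. Leaving out single samples gave -1.05 to -0.75. Of 3439 probes, 1805 passed, 1160 with neighbours averaged, 926 with centring, averaging and the block, and 1681 to 1813 without single samples. The share of calls that were higher under paraquat depended on the scaling, with 826 higher and 979 lower after quantile normalization and 1111 higher and 738 lower as deposited. Causes of these shifts were not tested.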
